A study of Mus musculus with 24 samples.

Results

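Skin of RAG2-/- mice that had received allogeneic splenocytes and an isotype control antibody was compared between day 28 and day 14, to describe how graft-versus-host disease of the skin moved on when the type I interferon receptor was not blocked. The comparison rests on 8 of the 24 arrays of the series, 4 at each day, taken by the sample titles that name isotype skin at these days. All mice were female RAG2-/- recipients, and the labels give no age. The isotype groups (GVH-SSc, a mouse model of sclerodermatous skin disease) had been grafted with B10.D2 splenocytes. Syngeneic mice (8 arrays) had received Balb/c splenocytes, with no antibody named in their titles. A further GVH-SSc group (8 arrays) had been given anti-IFNAR1, an antibody that binds one subunit of the receptor for type I interferons. Dose, schedule and clone of the antibodies are not given in the sources used here, and whether each array stands for a mouse of its own is not stated either, so a p-value here reflects array-to-array spread alone, which may be technical. RAG2-/- recipients cannot form T or B cells but keep natural killer, myeloid and skin-resident cells.

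In this disease donor T cells enter the skin and recognise host antigens. Interferons, cytotoxic granules and chemokines are features of the inflamed phase, and the epidermis answers injury by thickening and by building an altered cornified envelope, the protein shell of dying keratinocytes. The genes of that shell (involucrin, loricrin, the small proline-rich Sprr proteins and the late cornified envelope Lce proteins) lie side by side in the epidermal differentiation complex on mouse chromosome 3. The dermal fat layer is known to shrink in sclerotic skin.

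Values are probe set intensities as log2(intensity + 16), so a gene without signal sits just above 4. Changes are day 28 minus day 14 in log2 units ± SE, with n = 4 arrays a day. The SE takes its spread from all 24 arrays, so it can understate the isotype spread of genes that are quiet in other groups. For Lce3a the SD was 2.21 and 1.59 in isotype skin at day 14 and day 28, and 0.06 and 0.08 in syngeneic skin. A gene is called where limma's adjusted p was under 0.05 over all 18193 genes. Of markers of the labelled tissue, Krt14, a keratin of basal epidermis, lay at 14.20 to 15.68 on the 8 arrays. Cd3d, part of the CD3 signalling unit of T cells, lay at 8.13 to 9.10, against group means of 4.61 and 4.37 in syngeneic skin. In bulk skin, fewer cells of a type and less RNA per cell cannot be told apart.

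A pair of isotype arrays stood apart. Array 4 of day 14 had a mean of 7.41 over the 25 measured epidermal stress genes, against 10.52 to 11.14 on the other day 14 arrays and 6.88 to 8.15 in syngeneic skin of that day, although its T cell list mean (7.10) was as high as theirs (7.07 to 7.60). Array 1 of day 28 had a hair follicle list mean of 7.62, against 4.90 to 5.0 on the other day 28 arrays. Its log2 ratio of the 3' to the 5' Gapdh control probe sets, which grows as RNA is degraded or incompletely copied, was 4.59, against 1.07 to 2.70 on the other day 28 arrays and 0.62 to 2.16 at day 14. Results that moved without these arrays are given beside them.

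Between day 14 and day 28, 400 of 18193 genes (2.2%) were called, 209 higher (1.15%) and 191 lower (1.05%). A change of 2-fold or more was seen in 124 and 107 of these. The 4 values of day 28 lay wholly above those of day 14 in 562 genes (3.09%) and wholly below in 913 (5.02%), and 181 and 171 of these were called. The median change over all genes was 0.002. Syngeneic skin had 14 calls between the days (0.077%), 1 higher (0.0055%) and 13 lower (0.0715%). Anti-IFNAR1 skin had 101 (0.555%), 31 higher (0.17%) and 70 lower (0.385%).

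The number of calls depended on single arrays. It ran from 151 without day 28 array 1 to 554 without day 28 array 3, and was 226 without day 14 array 4. In all, 111 of the 400 genes, 78 higher and 33 lower, were called each time when each of the 8 arrays was left out in turn. When the spread was taken from the 8 isotype arrays alone, 6 genes were called, 1 higher and 5 lower, and only 3 of these were among the 400. The calls therefore lean on the spread over all 24 arrays. With array medians centred the split was 340 higher and 133 lower, and with quantile normalization 264 and 140. With the Gapdh ratio as a covariate 254 were higher and 214 lower, and 324 of the 400 calls were kept.

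Part of the cornified envelope genes rose. Of 28 measured members 10 were called higher and none lower, 13 did not overlap between the days, and the median change was 0.97, against 0.21 in syngeneic and -0.07 in anti-IFNAR1 skin. Without single isotype arrays 6 to 11 members were called, fewest without day 28 array 1 or 4, and with only the 8 isotype arrays none was. The list mean lay at 10.54 to 11.32 at day 14 and 12.08 to 12.57 at day 28, so the 2 groups of arrays did not overlap.

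Lce3a, a late cornified envelope protein made in injured epidermis, lay at 9.58, 5.37, 6.58 and 4.52 on day 14 arrays 1 to 4. On day 28 arrays 1 to 4 it lay at 13.05, 9.79, 9.85 and 11.83. Every day 28 array was above every day 14 array, though array 1 of day 14 came close to the lowest of them. The change was 4.61 ± 0.83 (24.5-fold, adjusted p = 0.0082), and the call held without each isotype array (adjusted p at most 0.034). It was lost with all arrays of a Gapdh log2 ratio above 4 left out (adjusted p = 0.068). That fit leaves out isotype day 28 array 1 and also arrays of the syngeneic and anti-IFNAR1 groups. Its neighbour Lce3b rose by 3.44 ± 0.54 (adjusted p = 0.0031) and kept its call each time an isotype array was left out (adjusted p at most 0.013). Both genes lay near background in syngeneic skin, with means of 4.50 to 5.56.

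Involucrin (Ivl), an early scaffold of the envelope, was bright at both days, at 11.25, 11.67, 11.65 and 11.40 on the day 14 arrays. At day 28 it read 12.59, 13.58, 12.69 and 13.19. The day 14 values lay about the syngeneic means (11.32 and 11.64), and all 4 day 28 values stood above them. The rise was 1.52 ± 0.23 (adjusted p = 0.0024), and 1.66 in the fit without the arrays of high Gapdh ratio (adjusted p = 0.0044). Casp14, a protease of terminally differentiating keratinocytes, rose by 2.97 ± 0.59 (adjusted p = 0.014, and 0.0503 without arrays of high Gapdh ratio), but its other probe set changed by 0.22. Calm4, a calmodulin-like protein of the upper epidermis, rose by 0.96 ± 0.16 (adjusted p = 0.0054), and Klk5, a protease that sheds corneocytes, by 1.57 ± 0.26 (adjusted p = 0.0046). Krt1, a keratin of the suprabasal layers, was 11.43 on day 14 array 1 and 13.64 to 15.04 on the other 7 arrays. It was called (1.51 ± 0.39, adjusted p = 0.047), yet not without any one of day 14 array 4 or day 28 arrays 1 to 4 (adjusted p up to 0.12).

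The small proline-rich family was the steepest group. Of 9 measured Sprr genes 5 were called higher, with a median of 3.14, and of 15 Lce genes 7 were called higher, with a median of 0.99. These families, and the chromosome 3 run, were singled out after their values were seen. Along that run, from S100a10 to S100a1, 49 genes were measured, of which 13 were called higher and none lower, with a median of 0.94.

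The sequences just upstream of the transcription starts of 4 envelope genes are shown because Sprr2 and Ivl promoters share an element that the rule of comparison did not use. Capitals mark the letters TGANTCA, the AP-1 motif, which reads alike on both strands apart from its centre.

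Sprr2d: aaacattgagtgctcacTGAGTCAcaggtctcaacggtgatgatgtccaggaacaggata
Sprr2i: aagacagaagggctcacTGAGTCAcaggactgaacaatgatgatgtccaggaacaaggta
Sprr2k: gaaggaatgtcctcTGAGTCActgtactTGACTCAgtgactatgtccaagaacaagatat
Ivl: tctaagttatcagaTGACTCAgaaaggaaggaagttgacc

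They come from RefSeq on GRCm38.p6, at chr3:92338930-92338989 (Sprr2d), chr3:92407781-92407840 (Sprr2i) and chr3:92432372-92432431 (Sprr2k) on the plus strand, each 210 to 151 bases before the start. The Ivl window, chr3:92573826-92573865 on the minus strand, lies 130 to 91 bases before it. Sprr2d and Sprr2i had the same base at 47 of 60 positions, and in Sprr2k the motif occurred at a pair of places. AP-1 letters were present upstream of 7 of the 8 Sprr genes with a listed promoter and of 5 of 23 members of the cornified envelope list (21.7%), which holds no Sprr gene. The share was higher, 6 of 20 (30.0%), in the list of type I interferon-inducible genes, part of which fell, so the letters were not particular to rising genes. The windows of Lce3a, Lce3b, Lce3c, Lce1g, Casp14, Calm4, Klk5 and Tgm3, all called higher, held no match. They were present in 6.75% of all 32851 listed promoters, in 20 of 162 genes called higher with a listed promoter (12.3%) and in 15 of 153 called lower (9.8%), against 968 of all 14452 measured genes with one (6.7%). A match of letters is a description and does not show that a factor bound there.

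Sprr2k lay at 4.82, 5.06, 4.76 and 4.74 at day 14. At day 28 it read 6.54, 6.50, 6.44 and 6.86. The values were dim but tight, and no other gene of the comparison had a smaller p. The rise was 1.74 ± 0.08 (3.34-fold, adjusted p = 2.6e-10), it was called among the 6 genes of the 8-array fit, and it held without each array (adjusted p at most 4.8e-09). Sprr2i, at 6.61, 4.42, 4.42 and 4.28 at day 14, reached 9.75, 6.63, 7.79 and 8.61 at day 28. Here the lowest day 28 value only just cleared the highest day 14 value, and the rise was 3.26 ± 0.50 (adjusted p = 0.0025). The SD of Sprr2i was 1.12 and 1.32 in isotype skin at day 14 and day 28, and 0.03 and 0.04 in syngeneic skin. In the 8-array fit its adjusted p was 0.2. Sprr2d was spread widely at day 14, from 4.46 on array 4 to 11.94 on array 1, and stood at 11.39 to 13.72 at day 28. Its call (4.28 ± 1.04, adjusted p = 0.038) and that of Sprr2f (4.74 ± 1.09, adjusted p = 0.028) ended without any one of day 14 arrays 2, 3 or 4 or of day 28 arrays 1 or 4, and that of Sprr2d also without day 28 array 2, with adjusted p up to 0.13 and 0.093. Sprr2h, at 3.54 ± 1.19, was not called (adjusted p = 0.14). Members of the family are close relatives, so probe sets may read more than 1 of them.

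**Figure D1:**
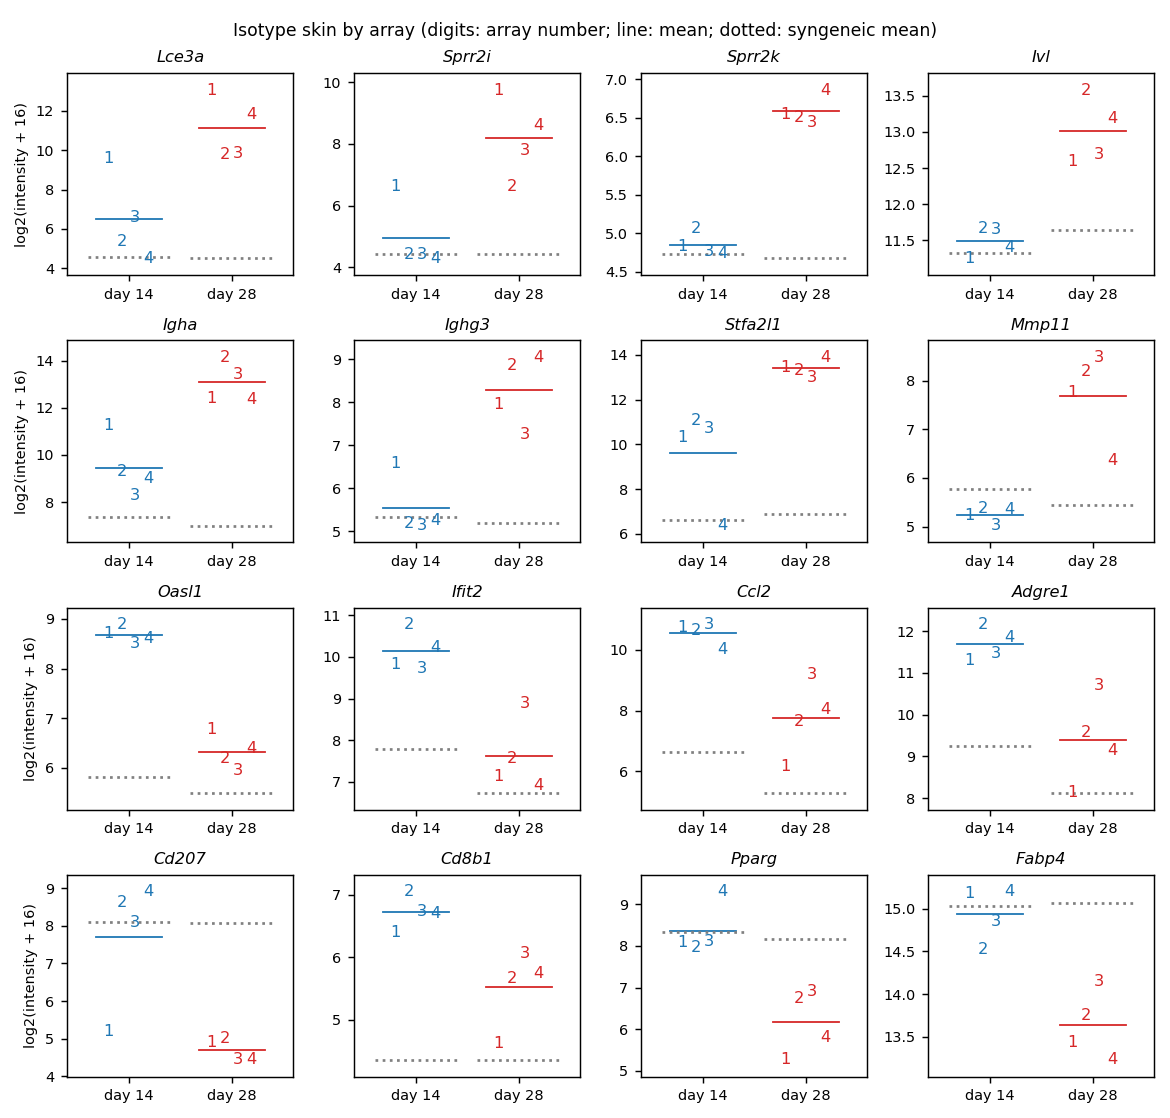
Values of 16 genes on the 8 isotype arrays as log2(intensity + 16), with digits for the array number, a line for the mean of 4 arrays and a dotted line for the syngeneic mean of the same day. The upper 8 genes were called higher and the lower 8 lower at day 28; for Sprr2k every day 14 array lay at 5.06 or below and every day 28 array at 6.44 or above.

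Further epidermal genes rose with the envelope. Il1f6, which encodes interleukin-36 alpha, a cytokine released by injured keratinocytes, lay at 5.97, 7.13, 5.92 and 4.50 at day 14. It lay at 8.21, 8.40, 7.93 and 8.54 at day 28. The groups did not overlap, and it was the only one of 24 interleukin-1 and inflammatory cytokine genes to be called (2.39 ± 0.39, adjusted p = 0.0044, at most 0.015 without any isotype array). Il1b, the classical inflammasome cytokine, was 2.24 ± 0.73 higher without a call (adjusted p = 0.12), with 5.86 on day 14 array 4 and 8.70 to 11.08 on the others. The proteases and inhibitors Klk9 (2.88 ± 0.42, adjusted p = 0.0021) and Serpinb12 (2.50 ± 0.35, adjusted p = 0.0015) rose, the latter by 0.78 on its other probe set. Rbp2, a carrier of retinol, rose by 2.35 ± 0.46 (adjusted p = 0.012), a call that ended without arrays of high Gapdh ratio (adjusted p = 0.084).

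All 3 measured subunits of the epithelial sodium channel were called higher, a family singled out after its values were seen. Scnn1g, the gamma subunit, lay at 5.05, 6.26, 6.25 and 5.83 at day 14. It lay at 8.26, 7.38, 7.38 and 9.12 at day 28. The groups were clear of each other, with a rise of 2.19 ± 0.30 (adjusted p = 0.0013). Scnn1a, the alpha subunit, rose by 1.28 ± 0.23 (adjusted p = 0.0069). Scnn1b, the beta subunit, rose by 1.70 ± 0.42 (adjusted p = 0.04), and its call ended without any one array except day 28 array 3 (adjusted p up to 0.12).

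The epidermal stress and wound list had the largest median of the lists, 1.78, against -0.03 in syngeneic and -0.47 in anti-IFNAR1 skin, but only 2 of its 25 measured members were called. These were Sprr2d and Tgm3, a transglutaminase that cross-links envelope proteins (3.19 ± 0.81, adjusted p = 0.045, up to 0.16 without single arrays: day 14 arrays 1, 3 and 4 and day 28 arrays 1, 2 and 4). Krt16, a keratin of wounded epidermis, lay at 14.69, 14.77, 14.82 and 9.22 at day 14, and at 16.12, 15.25, 14.93 and 15.72 at day 28. Array 4 of day 14 alone was at the syngeneic level (mean of 9.08), and the change of 2.13 ± 0.95 was not called (adjusted p = 0.3). Without that array the list's median fell to 0.74 and no member was called.

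**Figure D2:**
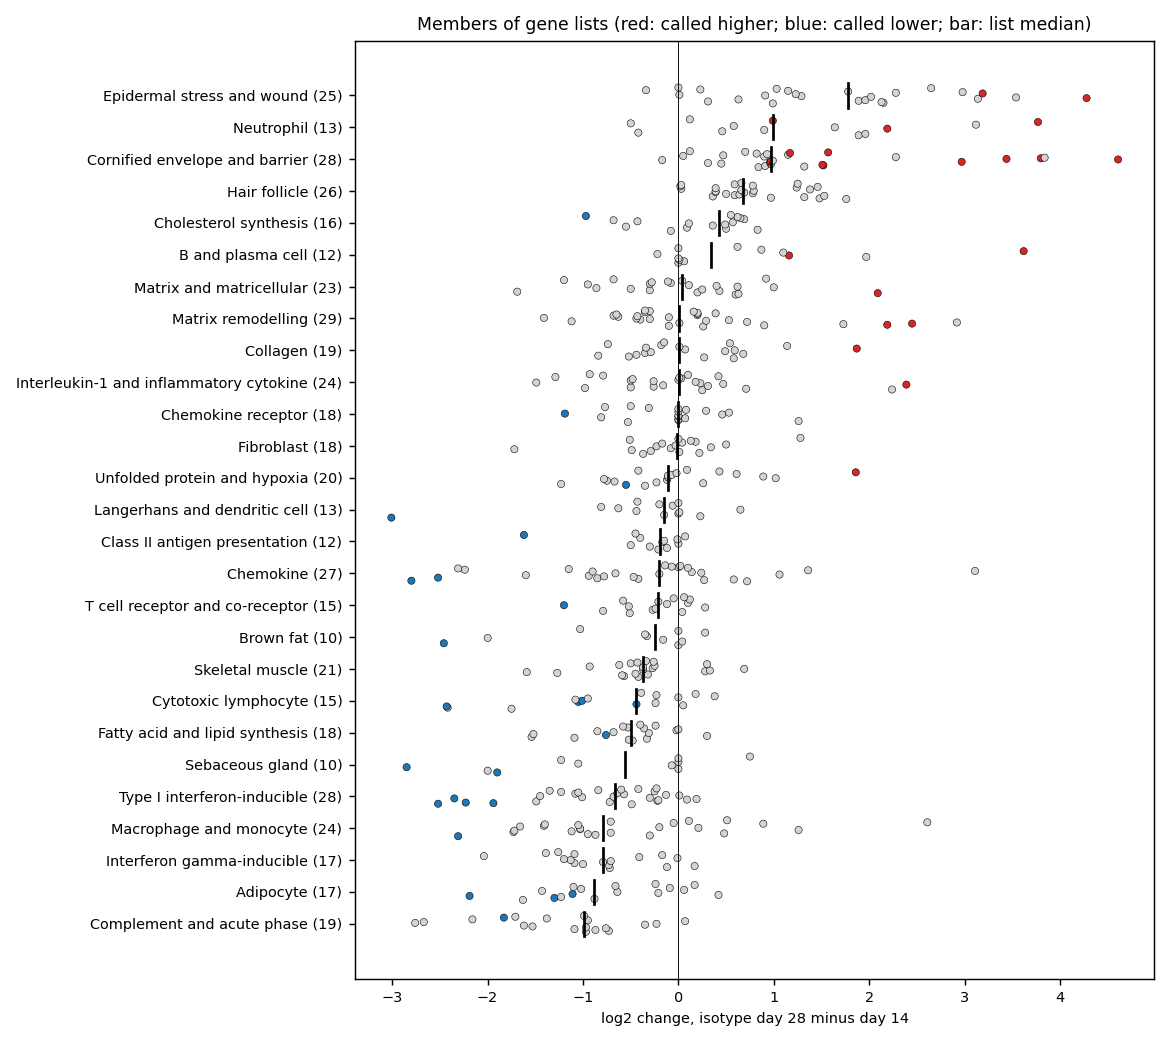
Change between the days in isotype skin (log2, day 28 minus day 14) for each measured member of the gene lists with a call and 4 without, with the number measured in brackets; red and blue points were called higher and lower, grey points were not called, and bars are list medians. Cornified envelope, stress and neutrophil members lie mostly to the right, with medians of 0.97, 1.78 and 0.99, and adipocyte and complement members mostly to the left, with medians of -0.88 and -0.99.

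A few genes of antibody-secreting cells rose. Igha and Mzb1 were the 2 calls among 12 B and plasma cell genes, whose median was 0.34, and Ighg3, which is not in that list, was called too. Igha, the constant region of immunoglobulin A, lay at 11.25, 9.30, 8.27 and 8.98 at day 14. At day 28 it lay at 12.39, 14.14, 13.40 and 12.36. All 4 later arrays were above all 4 earlier ones, and syngeneic means were 7.38 and 7.0. The rise was 3.62 ± 0.67 (12.3-fold, adjusted p = 0.0098, at most 0.033 without any isotype array). Since RAG2-/- hosts form no B cells of their own, transcripts of rearranged antibody genes would be those of grafted cells, by background knowledge of the genotype.

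Ighg3, the constant region of immunoglobulin G3, lay at 6.58, 5.18, 5.13 and 5.24 at day 14 and at 7.96, 8.86, 7.26 and 9.05 at day 28. It rose by 2.75 ± 0.36 (adjusted p = 0.00083), while its 4 probe sets ranged from -0.02 to 2.75. Mzb1, a chaperone of antibody-secreting cells, rose by 1.16 ± 0.24 (adjusted p = 0.017), from 4.36 to 4.58 at day 14 to 4.73, 5.74, 5.31 and 6.72. Jchain, which joins immunoglobulin chains, was 1.97 ± 0.59 higher without a call (adjusted p = 0.096). It lay at 8.21 on day 28 array 1 and at 10.84 to 11.51 on the other day 28 arrays, and was called without arrays of high Gapdh ratio (2.70, adjusted p = 0.016).

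Part of the neutrophil genes rose. Of 13 measured members 3 were called higher, with a median of 0.99 against -0.16 in anti-IFNAR1 skin. Stfa2l1, a stefin-like protease inhibitor of neutrophils, lay at 10.32, 11.06, 10.71 and 6.37 at day 14. It lay at 13.43, 13.28, 12.97 and 13.89 at day 28. The later arrays were tight and all higher, array 4 of day 14 was at the syngeneic level (means of 6.62 and 6.89), and the rise was 3.77 ± 0.76 (adjusted p = 0.015, at most 0.048 without any isotype array and 0.082 without arrays of high Gapdh ratio). Mpo, the granule peroxidase, stayed at 4.37 to 4.38 on all day 14 arrays. At day 28 it was 5.23, 4.38, 5.91 and 5.96, so the groups touched. It was called (0.99 ± 0.21, adjusted p = 0.018), but not without day 28 array 4 (adjusted p = 0.058). Cxcl2, a neutrophil attractant, was 10.60 on day 14 array 1, 6.21 to 6.49 on the other day 14 arrays and 8.94 to 11.90 at day 28, a difference of 3.11 ± 0.86 that was not called (adjusted p = 0.063). The neutrophil calls numbered 1 to 6 without single isotype arrays, fewest without day 28 array 4 and most without day 28 array 2, and none without arrays of high Gapdh ratio.

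Few matrix genes changed. Mmp11, stromelysin-3, a stromal protease of remodelling tissue, lay at 5.22, 5.37, 5.02 and 5.36 at day 14. It lay at 7.75, 8.18, 8.48 and 6.36 at day 28. The groups were separate, and the rise was 2.45 ± 0.35 (adjusted p = 0.0015, at most 0.0061 without any isotype array). Tnn, tenascin N, was likewise highest on day 28 array 3 and lowest on array 4, with 5.23 to 5.56 at day 14 and 7.67, 7.61, 8.55 and 5.81 at day 28 (2.09 ± 0.35, adjusted p = 0.0054). Mmp9, a gelatinase that neutrophils and keratinocytes make, rose by 2.19 ± 0.46 (adjusted p = 0.018), not called without day 14 arrays 1 or 4 or day 28 arrays 1 or 4 (adjusted p up to 0.067).

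Of 19 collagens 1 was called, Col7a1, the anchoring fibril collagen below the epidermis (1.87 ± 0.48, adjusted p = 0.049), and the call ended without any one of the day 14 arrays or without day 28 arrays 1 or 2 (adjusted p up to 0.18). The collagen median was 0.01. Col1a1, the main dermal collagen, lay at 10.59, 10.73, 11.09 and 12.17 at day 14 and at 11.97, 12.19, 13.10 and 9.67 at day 28. The days overlapped fully, with a difference of 0.58 ± 0.78 (adjusted p = 0.92). Tnc, tenascin C, was at 7.62 on day 14 array 4 and at 10.91 to 12.67 on the others (0.63 ± 0.96, adjusted p = 0.96). Tgfb1, the profibrotic cytokine, differed by -0.12 ± 0.32 (adjusted p = 1). The matrix and matricellular list had 1 call among 23 members, Tnn, and the remodelling list had 2 among 29, Mmp11 and Mmp9. Mmp13, a collagenase, was 2.92 ± 0.98 higher without a call (adjusted p = 0.14).

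Part of the genes induced by type I interferon fell. Of 28 measured members 4 were called lower and none higher, 10 did not overlap between the days, and the median was -0.66. The same median was -1.06 in syngeneic and -0.97 in anti-IFNAR1 skin. The list mean lay at 9.50 to 10.46 at day 14 and at 8.80 to 9.32 at day 28, which was still above the syngeneic range of that day, 6.81 to 7.83. Without single isotype arrays 2 to 7 members were called, fewest without day 14 array 2 or day 28 array 4 and most without day 28 array 3.

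Oasl1, an oligoadenylate synthetase-like protein that restrains interferon production, lay at 8.71, 8.89, 8.51 and 8.6 at day 14. It lay at 6.78, 6.18, 5.95 and 6.39 at day 28. The groups were far apart, the change was -2.35 ± 0.41 (adjusted p = 0.0069), and the call held without each isotype array and in the 8-array fit. Ifit2, an RNA-binding antiviral protein, went from 9.82, 10.78, 9.73 and 10.23 to 7.13, 7.56, 8.87 and 6.92. Its change was -2.52 ± 0.49 (adjusted p = 0.013, at most 0.047 without any isotype array), and it was not called without arrays of high Gapdh ratio (adjusted p = 0.071). Ifit3 changed by -1.94 ± 0.47 (adjusted p = 0.037) and Ifi44l by -2.23 ± 0.49 (adjusted p = 0.023). The call of Ifit3 ended without day 14 arrays 2 or 4 or day 28 arrays 1, 2 or 4 (adjusted p up to 0.11) and that of Ifi44l without day 14 array 2 or day 28 array 4 (adjusted p up to 0.078). The 3 probe sets of Ifi44l ranged from -2.75 to -0.20. Ifi44l also changed by -2.4 ± 0.49 in anti-IFNAR1 skin (adjusted p = 0.035) and by -1.37 ± 0.49 in syngeneic skin (adjusted p = 0.32).

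The Ifit3 promoter is shown because it carries the element through which type I interferon acts, in a pair of copies. Capitals mark the letters GAAA, then any 2 bases, then GAAA again, the core of the interferon-stimulated response element, found here on the strand opposite to the gene.

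Ifit3: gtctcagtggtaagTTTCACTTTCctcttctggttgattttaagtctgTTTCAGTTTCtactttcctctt

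The window is chr19:34583359-34583428 on the plus strand of GRCm38.p6 (RefSeq), 170 to 101 bases before the start. These letters, on either strand, were in 7 of the 20 type I interferon genes with a listed promoter (35%) and in 2.98% of all 32851 listed promoters. Among genes called lower 10 of 153 held them (6.54%) and among genes called higher 4 of 162 (2.47%), against 453 of all 14452 measured genes with a listed promoter (3.13%). The windows of Oasl1, Ifit2 and Ifi44l held no match, which says only that these letters are not there.

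Interferon gamma genes had a median of -0.79 without a limma call among 17 members. At an unadjusted p under 0.05, which 14.7% of all genes passed in either direction, 2 of them were lower and 0 higher. In syngeneic skin the median was -2.10, where day 14 arrays 1 and 2 had list means of 11.18 and 9.93 and the other 2 had 7.42 and 7.76. Without those 2 syngeneic arrays 4 members were called lower in isotype skin, an alternative added after the data had been seen. Ifng itself lay at 7.74, 9.13, 8.32 and 7.03 at day 14 and at 7.25, 7.52, 7.54 and 7.57 at day 28, overlapping (-0.59 ± 0.44, adjusted p = 0.62). The receptor chains Ifnar1 (-0.75 ± 0.29, adjusted p = 0.21) and Ifnar2 (-0.95 ± 0.34, adjusted p = 0.17) were not called.

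Monocyte attractants and a few tissue macrophage genes fell. Ccl2, the ligand of CCR2 on monocytes, lay at 10.74, 10.64, 10.84 and 10 at day 14. At day 28 it lay at 6.15, 7.65, 9.18 and 8.04. The highest day 28 array was still below the lowest day 14 array, and the change was -2.80 ± 0.66 (adjusted p = 0.033). Ccl7, a related ligand, changed by -2.52 ± 0.55 (adjusted p = 0.022), in the same order of day 28 arrays. Ccl2 lost its call without any one array except day 28 array 3, and Ccl7 without day 14 arrays 2 or 3 or day 28 arrays 1 or 2 (adjusted p up to 0.13 and 0.087). They were the 2 calls among 27 chemokines, whose median was -0.20.

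Adgre1, which encodes F4/80, lay at 11.30, 12.16, 11.47 and 11.84 at day 14. It lay at 8.14, 9.58, 10.69 and 9.15 at day 28. Array 1, with the high Gapdh ratio, was lowest and array 3, with the lowest ratio of that day, was highest. The change was -2.31 ± 0.45 (adjusted p = 0.013), -1.99 with the ratio as a covariate (adjusted p = 0.0098) and -1.89 without arrays of high ratio (adjusted p = 0.049). It was the only call among 24 macrophage and monocyte genes, 8 of which did not overlap, with a median of -0.79 against -0.68 in syngeneic skin. Changes in this list ran from -2.31 to 2.61, and 7 members lay above 0. At an unadjusted p under 0.05, which 14.7% of all genes passed in either direction, 1 member was higher and 10 were lower. Fcgr1, a high-affinity antibody receptor, differed by -1.73 ± 0.49 (adjusted p = 0.07) and Cd163, a haemoglobin scavenger receptor, by -1.41 ± 0.43 (adjusted p = 0.1). Cd5l, a secreted macrophage protein, lay at 7.05, 6.56, 9.03 and 6.34 at day 14 and at 4.53 to 4.77 at day 28 (-2.64 ± 0.53, adjusted p = 0.015). Folr2, a folate receptor of resident macrophages, changed by -2.22 ± 0.46 (adjusted p = 0.016), not called without day 28 array 1 (adjusted p = 0.063).

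Langerin and a pair of related lectins fell. Cd207, langerin, was the 1 call among 13 Langerhans and dendritic cell genes. It lay at 5.20, 8.62, 8.10 and 8.91 at day 14. At day 28 it lay at 4.89, 5.01, 4.46 and 4.44, close to background. Array 1 of day 14 was already low, and syngeneic means were 8.11 and 8.08. The change was -3.01 ± 0.65 (adjusted p = 0.02), and the call ended without day 14 arrays 2, 3 or 4 or day 28 arrays 1 or 4 (adjusted p up to 0.071). The lectins Cd209g (-2.92 ± 0.64, adjusted p = 0.022) and Cd209f (-2.24 ± 0.53, adjusted p = 0.033), of a family of 7 with 2 calls, lost theirs without day 14 arrays 2, 3 or 4 or day 28 arrays 1, 2 or 4 (adjusted p up to 0.075 and 0.097). Cd86, a co-stimulatory ligand on antigen-presenting cells, fell from 6.97, 7.46, 7.41 and 7.98 to 6.06, 5.48, 6.02 and 5.77. That change of -1.62 ± 0.26 (adjusted p = 0.0041) held without each isotype array (adjusted p at most 0.016). It was not particular to isotype skin. Cd86 changed by -1.22 ± 0.26 in syngeneic (adjusted p = 0.081) and by -1.33 ± 0.26 in anti-IFNAR1 skin (adjusted p = 0.03).

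Few T cell receptor genes changed. Cd3d changed by -0.51 ± 0.23 without a call (adjusted p = 0.29), and the list of receptor and co-receptor genes had 1 call among 15 and a median of -0.21. That call was Cd8b1, the beta chain of the co-receptor of cytotoxic T cells. It lay at 6.39, 7.05, 6.73 and 6.70 at day 14 and at 4.63, 5.66, 6.06 and 5.74 at day 28. All day 28 arrays were lower, with a change of -1.20 ± 0.23 (adjusted p = 0.013, at most 0.037 without any isotype array and 0.052 without arrays of high Gapdh ratio).

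Of 15 cytotoxic genes 4 were called lower and none higher, with a median of -0.44 against -1.0 in syngeneic and -0.68 in anti-IFNAR1 skin. Fasl, the death ligand, changed by -1.05 ± 0.20 (adjusted p = 0.0099, at most 0.041 without any isotype array), but by -0.25 on its other probe set. Prf1, perforin, was dim throughout, at 5.04 to 5.32 and then 4.52 to 5.0, and changed by -0.44 ± 0.10 (adjusted p = 0.026). The other probe set of Prf1 changed by -0.02. Gzmb, the best known granule protease, lay at 11.21, 12.10, 11.21 and 11.14 at day 14 and at 7.82, 8.84, 9.89 and 9.42 at day 28. Its groups did not overlap, yet the change of -2.42 ± 0.67 was not called (adjusted p = 0.063), and it was called without syngeneic day 14 arrays 1 and 2 (adjusted p = 0.0027). Gzmc (-2.43 ± 0.62, adjusted p = 0.047), Klrk1, the NKG2D receptor (-1.01 ± 0.24, adjusted p = 0.032), and Cxcr3, the receptor for interferon-induced chemokines (-1.19 ± 0.28, adjusted p = 0.032), were called with all arrays. Each of these, and Prf1, lost its call without day 28 array 1 and without at least 1 other isotype array (adjusted p up to 0.13). The number of cytotoxic calls ran from 1 to 4 without single isotype arrays, with 1 without day 28 array 1 or array 2. Gzmc means at day 14 and day 28 were 7.34 and 4.92 in isotype, 8.62 and 6.98 in syngeneic and 7.66 and 6.78 in anti-IFNAR1 skin. Gzmc was thus not raised over syngeneic skin at either day. On syngeneic day 14 arrays 1 to 4 it lay at 10.34, 10.12, 7.01 and 7.03, and Gzmb at 9.31, 8.01, 5.13 and 5.41.

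Complement and acute-phase genes had the lowest median of the lists, -0.99, against -0.57 in syngeneic and -0.64 in anti-IFNAR1 skin. Of 19 members 8 lay wholly lower at day 28, and 1 was called. Cp, ceruloplasmin, lay at 12.38, 11.55, 11.60 and 10.89 at day 14 and at 9.76, 9.75, 9.79 and 9.79 at day 28. The later values were tight and all lower (-1.83 ± 0.37, adjusted p = 0.015, at most 0.049 without any isotype array and 0.07 without arrays of high Gapdh ratio), but its 8 probe sets ranged from -2.59 to 0.06. Cd55, which shields cells from complement, lay at 10.30, 10.37, 9.67 and 9.80 at day 14 and at 5.64, 7.48, 9.15 and 8.0 at day 28. Its change was -2.47 ± 0.53 (adjusted p = 0.02), and the adjusted p was 0.052 without day 14 array 1 or 2 or day 28 array 1.

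Part of the adipocyte genes fell in isotype skin. Of 17 measured members 3 were called lower and none higher, with a median of -0.88, against 0.13 in syngeneic and 0.54 in anti-IFNAR1 skin. The list mean lay at 10.06 to 10.96 at day 14 and at 9.22 to 10.02 at day 28. The count was 2 to 4 without single isotype arrays, 2 without day 28 array 1 and 4 without day 28 array 3.

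Pparg, the transcription factor of fat cell differentiation, lay at 8.09, 7.97, 8.10 and 9.31 at day 14. It lay at 5.26, 6.74, 6.91 and 5.79 at day 28. All later arrays were lower, and the syngeneic means were 8.33 and 8.17. The change was -2.19 ± 0.43 (adjusted p = 0.013, and 0.05 without day 28 array 1). Fabp4, the fatty acid carrier of adipocytes, lay at 15.18, 14.52, 14.85 and 15.20 and then at 13.43, 13.75, 14.15 and 13.23. It changed by -1.30 ± 0.22 (adjusted p = 0.0059), and all 4 of its probe sets were lower, from -1.82 to -1.03. Lpl, lipoprotein lipase, changed by -1.11 ± 0.22 (adjusted p = 0.012, at most 0.048 without any isotype array), and was not called without arrays of high Gapdh ratio (-0.96, adjusted p = 0.085).

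A few genes of other lipid lists fell too. Scd3 (-1.90 ± 0.46, adjusted p = 0.037), a fatty acid desaturase of sebaceous glands, and Far2 (-2.85 ± 0.71, adjusted p = 0.042), an enzyme of wax synthesis, were the 2 calls among 10 sebaceous genes. Far2 was already 5.06 on day 14 array 1, against 9.09 to 9.68 on the others of that day. Both lost their calls without any of day 14 arrays 2, 3 or 4 or day 28 arrays 1, 2 or 3, and Far2 also without day 28 array 4 (adjusted p up to 0.12). Cidea, a lipid droplet protein, was the 1 call among 10 brown fat genes (-2.46 ± 0.50, adjusted p = 0.015). Its groups overlapped, with 7.44 on day 14 array 1 and 8.02 on day 28 array 4, and the call ended without arrays of high Gapdh ratio (adjusted p = 0.073). Elovl5, a fatty acid elongase, changed by -0.76 ± 0.16 (adjusted p = 0.019) and was the 1 call among 18 fatty acid genes. Of 16 cholesterol genes 11 lay above 0, and their median was 0.43. The 1 call among them was Insig1, a brake on sterol synthesis, which changed by -0.97 ± 0.25 (adjusted p = 0.047). It lost its call without any one of the 8 arrays (adjusted p up to 0.12), and Elovl5 without day 14 array 4 or day 28 arrays 1 or 4 (adjusted p up to 0.074).

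By limma no gene was called among the markers of fibroblasts (18 measured), endothelium (24), skeletal muscle (21), hair follicles (26) and melanocytes (12), nor among TGF beta (28) and cell cycle (29) genes. At an unadjusted p under 0.05 these lists had, in that order, 1, 1, 0, 0, 1, 2 and 1 members higher and 0, 5, 5, 0, 1, 2 and 0 lower. Of all genes 14.7% passed that threshold in either direction. Vcam1, an adhesion molecule of activated vessels, differed by -1.70 ± 0.46 without a call (adjusted p = 0.058), with no overlap between 11.47 to 12.37 and 9.73 to 10.70. Enpep, aminopeptidase A, changed by -2.58 ± 0.60 (adjusted p = 0.032), called neither without day 14 arrays 1, 2 or 4 nor without day 28 arrays 1, 2 or 4 (adjusted p up to 0.12). Among 20 unfolded protein and hypoxia genes, Egln3, an oxygen-sensing hydroxylase, rose by 1.86 ± 0.38 (adjusted p = 0.016, up to 0.055 without day 28 arrays 1 or 4). Ddit3, a stress transcription factor, changed by -0.55 ± 0.12 (adjusted p = 0.024), not called without day 14 arrays 1 or 4 or day 28 arrays 1 or 4 (adjusted p up to 0.079), and its 2 probe sets ran from -0.55 to 0.10.

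Of the isotype arrays only day 28 array 1 had a Gapdh log2 ratio above 4. Without single day 28 arrays 1 to 4 (ratios 4.59, 1.70, 1.07 and 2.70), 151, 230, 554 and 186 genes were called. Among the 191 genes called lower, day 28 array 1 (Gapdh log2 ratio 4.59) was the lowest of its day in 91 and array 3 (1.07) the highest in 104. Among the 209 called higher, day 28 array 1 was the highest of its day in 95 and array 3 the lowest in 127. With the ratio as a covariate the list medians were 1.11 for cornified envelope, -0.69 for type I interferon, -0.57 for macrophage and -0.80 for adipocyte genes. Without arrays of a ratio above 4, which leaves 3 isotype arrays at day 28, 102 genes were called higher and 51 lower. That fit kept 116 of the 400 calls. It also leaves out syngeneic day 14 array 4, syngeneic day 28 array 3 and anti-IFNAR1 day 14 arrays 3 and 4. Of the 71 called genes named here 39 were not called in that fit, and each kept its direction. For 9 of these 39 the call held without each isotype array in turn. Among the called genes named here the values of the 2 days overlapped or touched for Lce3c, Sprr2d, Sprr2f, Mpo, Cd209f, Klrk1, Cidea, Scd3 and Far2. The medians of these lists were then 1.21, -0.63, -0.62 and -0.92, with 6, 1, 1 and 2 calls. The hair follicle median went from 0.68 to 0.00 in that fit. What part RNA quality had in the calls was not tested beyond these values.

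**Figure D3:**
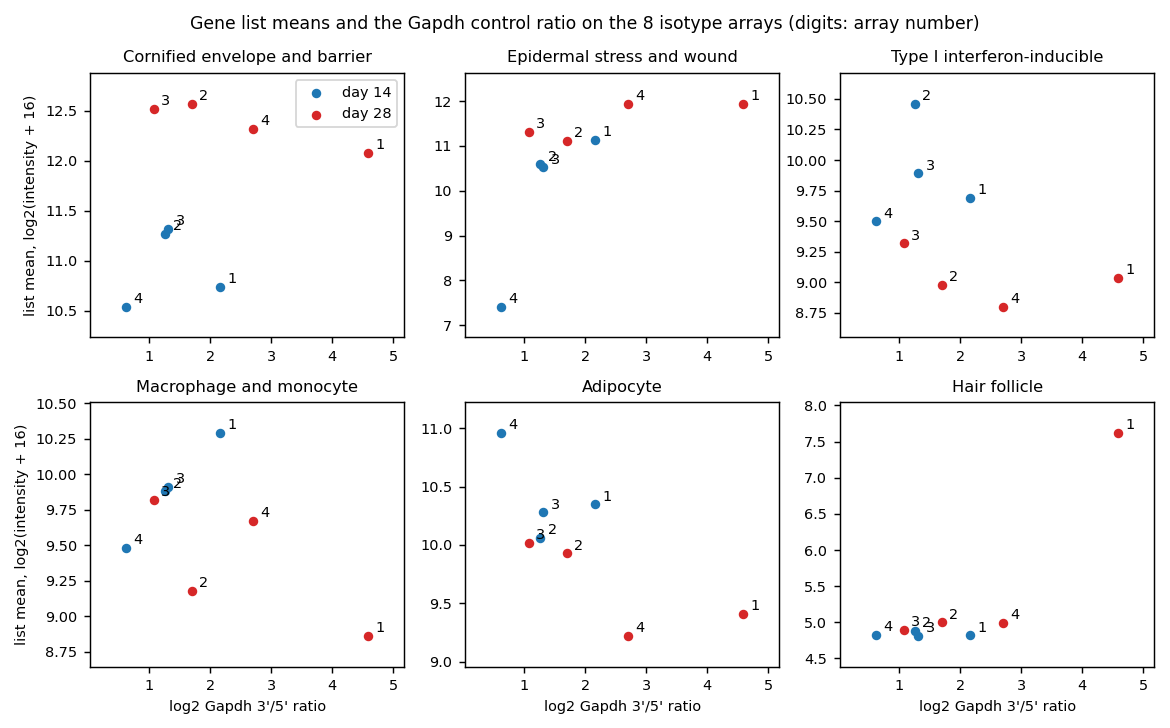
Mean log2(intensity + 16) of 6 gene lists against the log2 ratio of the 3' to the 5' Gapdh control probe sets on the 8 isotype arrays; digits are array numbers, blue is day 14 and red day 28. The cornified envelope means of the 2 days do not overlap (at most 11.32 and at least 12.08), the stress mean of day 14 array 4 (7.41) and the hair follicle mean of day 28 array 1 (7.62) stand apart.

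Whether the change between the days differed from that in syngeneic skin was tested as a difference of differences. Of 18193 genes 8 were called (0.044%), 7 with a more positive change in isotype skin (0.0385%) and 1 with a more negative one (0.0055%), beside 1775 (9.76%) at an unadjusted p under 0.05. The 7 were Sprr2k, Lce1g, Nccrp1, Cpa4, Mall, Ighg3 and Mmp11, and the other was Ywhaq, a 14-3-3 protein (-0.54 ± 0.09, adjusted p = 0.035), whose 8 probe sets ranged from -1.55 to -0.19 in isotype skin. All 8 were also called between the days in isotype skin, which the comparison shares. None of the type I interferon, macrophage, cytotoxic or adipocyte genes named above passed this test. A difference between isotype and syngeneic skin in their changes was therefore not shown. Syngeneic day 14 arrays 1 and 2, high in interferon gamma genes, enter this test through the syngeneic change and the spread. Without them 63 genes were called, 42 higher and 21 lower, an alternative added after the data had been seen. Which named genes are among them is not given here.

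Nccrp1, an F-box protein of squamous epithelia, lay at 4.75, 5.01, 5.04 and 4.99 at day 14. It lay at 7.87, 7.29, 6.27 and 6.68 at day 28. The rise of 2.08 ± 0.23 in isotype skin (adjusted p = 0.00018) stood beside -0.20 ± 0.23 in syngeneic skin, and the difference was 2.28 ± 0.33 (adjusted p = 0.0096). For Sprr2k the difference was 1.81 ± 0.12 (adjusted p = 6.2e-08) and for Lce1g 1.16 ± 0.14 (adjusted p = 0.0014). Lce1g itself was dim, at 4.47 to 4.82 and then 5.42 to 6.09. Cpa4, a carboxypeptidase, differed by 2.21 ± 0.36 (adjusted p = 0.031), and Mall, a raft protein of epithelia, by 1.61 ± 0.28 (adjusted p = 0.043). Ighg3 differed by 2.87 ± 0.50 and Mmp11 by 2.79 ± 0.49 (both adjusted p = 0.043).

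The change was set against that in anti-IFNAR1 skin in the same way, with 13 calls of 18193 (0.0715%), 7 higher (0.0385%) and 6 lower (0.033%), beside 2468 (13.6%) at an unadjusted p under 0.05. Both tests use the same isotype arrays, so each gene's own values are given side by side. Cpa4 changed by 2.02 ± 0.25 in isotype, -0.18 ± 0.25 in syngeneic and -0.10 ± 0.25 in anti-IFNAR1 skin, and the anti-IFNAR1 change was 2.12 below the isotype one (-2.12 ± 0.36, adjusted p = 0.035). Sprr2k changed by 1.74 in isotype, -0.07 in syngeneic and -0.00 in anti-IFNAR1 skin (-1.74 ± 0.12 for anti-IFNAR1 minus isotype, adjusted p = 1.2e-07). The same test gave -2.08 ± 0.33 for Nccrp1 (adjusted p = 0.027), -3.15 ± 0.50 for Ighg3 (adjusted p = 0.027), -1.64 ± 0.28 for Mall (adjusted p = 0.035) and -1.14 ± 0.14 for Lce1g (adjusted p = 0.0021).

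Of 17 adipocyte genes 1, Fabp4, was among the 7 whose change was more positive under the antibody. It changed by -1.30 ± 0.22 in isotype and 0.46 ± 0.22 in anti-IFNAR1 skin, a difference of 1.76 ± 0.31 (adjusted p = 0.038). Sncg, gamma-synuclein, which adipocytes and nerves express and which is not in the adipocyte list, lay at 8.12, 8.06, 8.44 and 10.22 at day 14 and at 7.05, 7.27, 7.73 and 7.12 at day 28. Its isotype change of -1.42 ± 0.41 was not called (adjusted p = 0.077), its anti-IFNAR1 change of 1.88 ± 0.41 was (adjusted p = 0.045), and they differed by 3.29 ± 0.58 (adjusted p = 0.035). P2ry13, a purine receptor of myeloid cells, lay at 6.46 to 6.96 and then at 5.07 to 5.6 in isotype skin (-1.53 ± 0.20, adjusted p = 0.00083) and differed by 1.56 ± 0.28 (adjusted p = 0.038). Smoc1 (2.39 ± 0.44), a matricellular protein, Slc5a3 (1.88 ± 0.31), an inositol carrier, Alad (1.77 ± 0.32), an enzyme of haem synthesis, and Tlcd4 (2.51 ± 0.44) were the other 4, with adjusted p of 0.041, 0.035, 0.038 and 0.035. With several probe sets, Tlcd4 ranged from -1.85 to 0.00 and Slc5a3 from -0.98 to 0.00 in isotype skin.

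These differences were fragile. Against syngeneic skin 3 to 53 genes and against anti-IFNAR1 skin 2 to 106 were called when single arrays were left out. Sprr2k and Lce1g kept both calls in each of these fits, and Nccrp1 kept that against syngeneic skin. With all arrays of high Gapdh ratio left out, Sprr2k alone of the genes named here kept its calls.

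**Figure D4:**
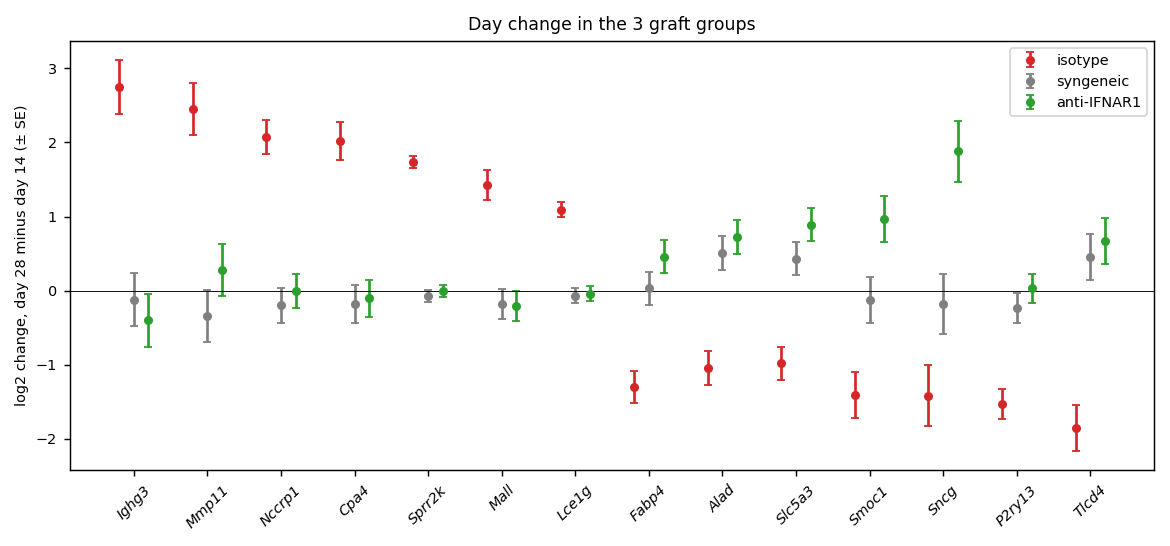
Change from day 14 to day 28 (log2, ± SE from the fit over 24 arrays) of 14 genes in isotype, syngeneic and anti-IFNAR1 skin, 4 arrays a day in each. The 7 genes on the left changed by 1.09 to 2.75 in isotype skin and by -0.40 to 0.28 in the other groups, and the 7 on the right by -1.85 to -0.98 in isotype skin and by -0.23 to 1.88 in the others.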

How the data were processed

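Skin RNA was measured on 24 Affymetrix arrays in 6 groups of 4, grouped by the labels' titles. The authors deposited probe set signals as linear intensity values, from 1.68 to 92640.3, with array medians of 14.8 to 17.7. Their summarisation, background correction and normalization are not stated in these sources. Per the labels' protocols, total RNA came from a column extraction meant for fibrous tissue, with biotin as the label. For arrays, the number of arrays limits the precision.

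Values were used as log2(intensity + 16) with no further normalization. The offset understates changes of dim genes. Of 45101 probe sets, 34945 carried 1 gene symbol in a platform annotation, 932 several and 9160 none, and 64 were controls. The probe set of highest mean stood for each of 18193 genes. Group means were fitted over the whole set of 24 arrays by limma 3.58.1 in R 4.3.3 (18 residual degrees of freedom, prior of 0.71). The two-sided p-values were adjusted by Benjamini-Hochberg, after tests on simulated data. Those simulated arrays had the same spread per gene in every group, so they say nothing of genes whose spread differs between groups.

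The 41 gene lists (736 of 815 entries measured), the members and the tests were chosen with earlier results of these data known. Named were the 15 largest called changes each way whose groups did not overlap, the 4 members of smallest p and the member of median change of each list, the 5 largest called differences each way, and Ifnar1, Ifnar2, Ifng, Tgfb1, Tnc, Col1a1, Cd3d and Krt16 among a few fixed genes. The text names part of these. Lce3c, Sprr2f, Lce1g, Krt1, Scnn1a, Scnn1b, Cd209f, Folr2, P2ry13 and Gzmb were named after their values had been seen. Alternatives were other offsets, normalizations, filters, covariates and arrays left out.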

Additional observations from a re-analysis of the deposited data

Results flagged for a closer look

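Of 208 groups of 4 isotype arrays tested (the named genes and the list means given), 24 had an array far from the other 3, where chance gives about 1 in 20. Day 14 array 4 was lowest for Krt16 (9.22), Krt14 (14.20), Stfa2l1 (6.37), P2ry13 (6.46) and the epidermal stress list mean (7.41), and highest for Pparg (9.31). Day 14 array 1 was highest for Sprr2i (6.61), Ighg3 (6.58), Cxcl2 (10.60) and Tnn (5.56), and lowest for Cidea (7.44) and Far2 (5.06). Day 14 array 2 was highest for Gzmb (12.10) and array 3 for Tgfb1 (9.93).

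Day 28 array 1 was highest for Cd5l (4.77) and the hair follicle list mean (7.62), and lowest for Ifng (7.25) and the B and plasma cell list mean (6.97). Array 2 of that day was lowest for Il1b (8.99) and the neutrophil list mean (7.68), array 3 was highest for Klrk1 (5.80), and array 4 was highest for Scd3 (6.18) and lowest for Alad (8.98) and the melanocyte list mean (5.42).

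The change between the days differed between isotype and syngeneic skin, by limma's test of the difference itself, for Sprr2k (1.81), Lce1g (1.16), Nccrp1 (2.28), Cpa4 (2.21), Mall (1.61), Ighg3 (2.87), Mmp11 (2.79) and Ywhaq (-0.54). Between anti-IFNAR1 and isotype skin it differed for Sprr2k (-1.74), Lce1g (-1.14), Nccrp1 (-2.08), Cpa4 (-2.12), Mall (-1.64), Ighg3 (-3.15), P2ry13 (1.56), Fabp4 (1.76), Sncg (3.29), Tlcd4 (2.51), Smoc1 (2.39), Slc5a3 (1.88) and Alad (1.77).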

How the results depend on the processing

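Isotype skin had 400 calls between the days, 209 higher and 191 lower. The count was 231 (124 higher, 107 lower) with a 2-fold minimum, 6 (1 and 5) in a fit of the 8 arrays compared, 1178 (576 and 602) with array weights and 153 (102 and 51) without arrays of a Gapdh log2 ratio above 4. It was 340 higher with array medians centred and 291 lower without syngeneic day 14 arrays 1 and 2, the last an alternative added after seeing the data. Leaving out single isotype arrays gave 151 to 554 calls, 107 to 283 higher and 44 to 271 lower. With the replicate number as a block there were 244, 98 of them lower. Same-numbered arrays did not deviate together (correlations of 0.15, 0.04, -0.15 and -0.38), so the number was not taken as a pairing. Of 71 called genes named in the text, 37 kept their call without each isotype array in turn.

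The difference from the syngeneic change had 8 calls (7 higher, 1 lower). It had 25 (22 and 3) with quantile normalization, 26 (23 and 3) with medians centred, 30 (25 and 5) without the dimmest genes, 22 (19 and 3) with the mean of all probe sets, 1 (1 and 0) with only the arrays compared, 150 (89 and 61) with array weights, 5 (4 higher) with the replicate block, 2 (2 and 0) without arrays of high Gapdh ratio and 63 (42 and 21) without both syngeneic arrays. Lower calls numbered 0 with a 2-fold minimum, 2 with an offset of 64, 0 with a trended robust prior and 3 with the hair follicle mean as a covariate. Leaving out single arrays gave 3 to 53 calls, 3 to 43 higher and 0 to 17 lower.

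The difference of the anti-IFNAR1 from the isotype change had 13 calls (7 higher, 6 lower). It had 42 (33 lower) with quantile normalization, 117 (17 and 100) with medians centred, 27 (13 and 14) with an offset of 1, 25 (13 and 12) with an offset of 64, 56 (30 and 26) without the dimmest genes, 2 (1 and 1) with only the arrays compared, 20 (10 lower) with a trended robust prior, 1224 (776 and 448) with array weights, 6 (3 and 3) with the Gapdh ratio as a covariate, 8 (3 higher) without arrays of high ratio and 83 (58 and 25) with the hair follicle mean. The replicate block gave 10 lower. Leaving out single arrays gave 2 to 106 calls, 0 to 76 higher and 2 to 30 lower.

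Of the named genes 2 without a call changed sign, Tnc (-0.47 to 1.22 without single isotype arrays, lowest without day 14 array 4) and Tgfb1 (0.01 with the Gapdh ratio, and -0.28 to 0.05 without single isotype arrays, highest without day 14 array 3). Where the cause is not given by fewer arrays or genes, the cause was not tested. Probe sets dim over the offset limit what can be said of low genes such as Sprr2k, Lce1g, Mzb1 and Prf1.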
